A study of Homo sapiens with 8 samples.

Results

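The comparison described here asked how 12 h of 5-fluorouracil (5-FU) changed the transcripts of HCT-116 cells that spent the following 4 h in the kinase inhibitor 3-MB-PP1. HCT-116 is an established human colorectal cancer cell line with an intact p53 response. Its members were chosen by title, and they were 4 of the 8 libraries of the series, 2 in each of 2 groups. In the 5-FU/3-MB-PP1 group, cells received 40 µM 5-FU for 12 h, were washed with PBS, and then received 2.5 µM 3-MB-PP1 for 4 h. In the DMSO/3-MB-PP1 group, the vehicle DMSO took the place of 5-FU and the second step was the same. The other 4 libraries formed the same pair without the inhibitor, 5-FU/DMSO and DMSO/DMSO, and they served to test whether the effect of 5-FU differed when 3-MB-PP1 was absent. All 8 libraries thus had a treatment of 12 h, a wash and a treatment of 4 h before RNA was taken. The series concerns p53 activation and inhibition of CDK7, and its labels give neither the kinase allele of the cells nor whether they were 1 clone. Nothing in the labels says that replicates came from separate cultures, so p-values measure the spread between these libraries, which may be technical.

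5-FU is an antimetabolite. Its products inhibit thymidylate synthase, which starves cells of dTTP, and they are also built into RNA and DNA. The resulting damage stabilises p53, a transcription factor that raises genes of cell cycle arrest, apoptosis and DNA repair. Its target p21, the product of CDKN1A, inhibits CDK2, and the DREAM repressor complex then silences genes of DNA replication and mitosis. 3-MB-PP1 is a bulky ATP analogue made to inhibit kinases whose ATP pocket has been widened by mutation, while natural kinases mostly do not bind it. CDK7 is the kinase of TFIIH and of the CDK-activating complex, and it acts on both RNA polymerase II and the cell cycle CDKs.

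Total RNA was depleted of rRNA and sequenced, and each library is described by its read counts over RefSeq genes. The 5-FU/3-MB-PP1 libraries held 12452998 and 12777785 gene counts and the DMSO/3-MB-PP1 libraries 49923660 and 10458884 gene counts, so the first DMSO/3-MB-PP1 library was the deepest of the 8. The other 4 held 12776110 to 16560563 gene counts. Replicates of a group had a correlation of log2 CPM (counts per 1000000 counts of the library) between 0.9929 and 0.9945 across genes, and they differed by more than sampling noise (chi-square per degree of freedom 1.90 to 3.88). The summed level of 8 markers of HCT-116 epithelial cells was 4330 to 4390 CPM in the 5-FU/3-MB-PP1 libraries and 2960 to 2970 CPM in the DMSO/3-MB-PP1 libraries, with the marker VIL1 near 0 in all libraries. The 16 markers of fibroblasts, leukocytes and endothelium summed to 26.1 to 30.1 CPM and to 24.1 to 25.2 CPM in these groups, mostly COL1A1, PECAM1 and KDR, and 4 of them had no count in any library (COL1A2, LUM, DCN and CDH5).

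Of 15511 genes tested, 6142 (39.6%) were called at an adjusted p under 0.05 between the 5-FU/3-MB-PP1 and DMSO/3-MB-PP1 libraries, 3058 of them higher (19.7%) and 3084 lower (19.9%). Levels are CPM after TMM scaling, and a positive log2 fold change means a higher level after 5-FU. Changes over 2-fold were fewer, 279 higher (1.8%) and 455 lower (2.93%). Over all genes the median change was 0.00, with quartiles at -0.23 and 0.22. Scaled to the ERCC spike-ins, which are RNAs added in fixed amounts, the median of all genes was -0.19 and 140 genes were called, 20 higher and 120 lower. The spike-ins stood at 36.9 and 29.2 per 1000 gene counts in the 5-FU/3-MB-PP1 libraries and at 39.3 and 22.0 in the DMSO/3-MB-PP1 libraries, so they differed more between replicates in the DMSO/3-MB-PP1 group. Under the TMM scaling used below, a shift shared by all RNA would not appear.

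The largest rise among called genes of at least 1 CPM was that of FLG, which codes for the epidermal barrier protein filaggrin. FLG had 3.28 and 2.81 CPM in the 5-FU/3-MB-PP1 libraries, against 0.217 and 0.285 CPM in the DMSO/3-MB-PP1 libraries (log2 fold change 3.69 ± 0.36 SE, edgeR adjusted p = 5.6e-09). COL4A1, a chain of basement membrane collagen, followed at 1.68 and 2.34 CPM against 0.237 and 0.0951 CPM (3.22). HRNR, whose product hornerin is a relative of filaggrin, rose by 2.77. At higher levels, the p53-regulated serpin gene SERPINB5 had 162 and 165 CPM after 5-FU, against 32.2 and 31.6 CPM after the vehicle (2.35 ± 0.063). Others among the 10 largest rises were ABCA12 (2.58, a lipid transporter), INPP5D (2.50, the SHIP1 phosphatase), PVRL4 (2.46, the adhesion protein nectin-4), TP53I3 (2.42, a quinone oxidoreductase) and CDKN1A (2.31).

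The 10 largest falls held 5 histone genes and 5 others. ZNF367, a zinc finger gene, had 4.08 and 3.75 CPM in the 5-FU/3-MB-PP1 libraries, against 42.4 and 43.2 CPM in the DMSO/3-MB-PP1 libraries (log2 fold change -3.44 ± 0.12, edgeR adjusted p = 6.97e-18). FAM111B, which codes for a protease, had 3.04 and 2.89 CPM against 25.6 and 24.2 CPM (-3.08). CCNE2, the gene of cyclin E2, fell by 2.76, and it overlaps INTS8 on the other strand. As no source used here gives the counting program's strand setting, reads of overlapping genes cannot be told apart. Overlaps are given below for some genes only. Others named in the text also overlap a neighbour, such as BUB1B (PAK6, on the same strand), CCNA2 (EXOSC9) and IDI1 (IDI2-AS1). RIBC2 (-3.48) and STXBP5L (-3.03) also fell, and both stayed under 4 CPM in all 4 libraries.

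**Figure D1:**
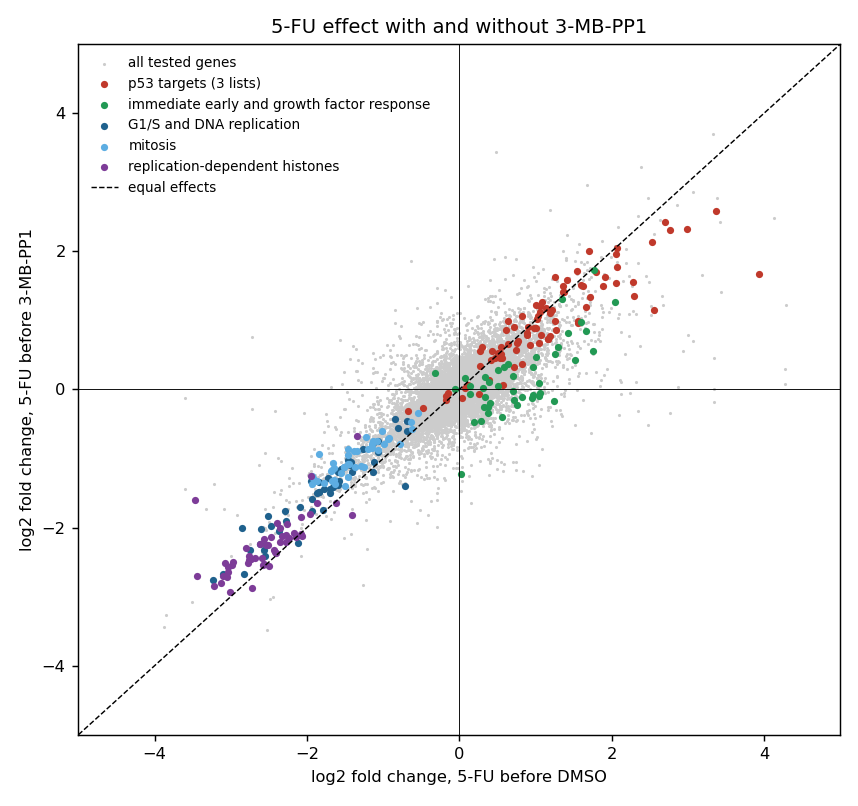
Each dot is a gene, placed by the log2 fold change of 5-FU before DMSO (x axis) and before 3-MB-PP1 (y axis), with 2 libraries in each group. Most p53 targets lie in the upper right and replication, mitosis and histone genes in the lower left, while most immediate early genes lie to the right of the diagonal of equal effects, which is dashed. The axes leave out 3 genes.

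The targets of p53 that serve arrest and feedback were higher after 5-FU in the presence of the inhibitor. Of 22 such genes 21 were tested, 17 rose and 1 fell, against a background of 19.7% and 19.9%, and their median log2 fold change was 1.10, which is 2.15-fold. CDKN1A, the gene of p21 (chr6:36646487-36655116, hg19), had 859 and 827 CPM in the 5-FU/3-MB-PP1 libraries, against 172 and 165 CPM in the DMSO/3-MB-PP1 libraries (2.31 ± 0.049, 4.98-fold, edgeR adjusted p = 1.68e-21). The groups did not overlap, which was so in this direction for 34.3% of all genes. MDM2, the ubiquitin ligase that degrades p53, had 900.5 and 922 CPM after 5-FU, against 359 and 352 CPM after the vehicle (1.36 ± 0.047, 2.56-fold, adjusted p = 1.02e-17 by edgeR). Rises of a like size were found for TP53INP1, a cofactor of p53 phosphorylation (1.72), the antiproliferative gene BTG2 (1.63), the RNA-binding protein gene ZMAT3 (1.58), the AKT repressor gene PHLDA3 (1.54) and SESN2, a sestrin that restrains mTORC1 (1.5). PPM1D, which codes for the p53-directed phosphatase WIP1, rose by 0.70. The member that fell was E2F7, a repressor of E2F targets that is itself cell cycle regulated (-0.32). FOXO3, a transcription factor gene, was not called (-0.13). Without the first 5-FU/3-MB-PP1 library E2F7 was not called (-0.25, edgeR adjusted p = 0.0824).

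Without the inhibitor the same 21 genes had a median of 1.35, with 18 called higher and 1 lower, where 44% of all genes were called, 21.4% higher and 22.6% lower. The difference between the effects was tested as an interaction, which was called for 651 genes (4.2%), 328 positive (2.11%) and 323 negative (2.08%), a negative value meaning a lower 5-FU effect under 3-MB-PP1. With spike-in scaling 0 genes were called in the interaction (75 at an unadjusted p under 0.05 by edgeR), and DESeq2 called 379. The count of 651 rested on single libraries: it was 403 and 281 without the first and the second 5-FU/3-MB-PP1 library, 349 without the first DMSO/3-MB-PP1 library, 320 without the first 5-FU/DMSO library and 240 without the first DMSO/DMSO library. Of the 21 arrest and feedback genes, 6 had a negative and 1 a positive interaction, and the positive call ended without either 5-FU/3-MB-PP1 library or without the first library of any other group. CDKN1A reached 1604 and 1509 CPM in the 5-FU/DMSO libraries, against 194 and 199.9 CPM in the DMSO/DMSO libraries, so its rise was 2.31 under 3-MB-PP1 and 2.98 under DMSO (interaction -0.67 ± 0.067, edgeR adjusted p = 4.66e-07). MDM2 had 2084 and 2238 CPM in 5-FU/DMSO libraries, against 454 and 430.5 CPM in DMSO/DMSO libraries (interaction -0.93 ± 0.065, adjusted p = 1.32e-09 by edgeR). Both genes thus rose in both settings, and less in fold under 3-MB-PP1. PLK2 and PLK3, kinase genes of the polo family, had interactions of -0.47 and -0.59, with smaller rises under 3-MB-PP1 too.

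Pro-apoptotic targets were also higher after 5-FU. Of 21 tested, 18 rose and 0 fell, beside 19.7% and 19.9% of all genes, with a median of 0.79 (1.73-fold). FAS, a death receptor gene, had 105 and 102 CPM in the 5-FU/3-MB-PP1 libraries, against 26.5 and 26.5 CPM in the DMSO/3-MB-PP1 libraries (1.97 ± 0.071, edgeR adjusted p = 2.75e-17), and ACTA2 and FAS-AS1 overlap it on the other strand. BBC3, which codes for the BH3-only protein PUMA, had 15.1 and 15.2 CPM against 5.78 and 4.00 CPM (1.5 ± 0.14). The pore-forming effector gene BAX had 75.5 and 72.7 CPM after 5-FU, against 32.8 and 36.3 CPM after the vehicle (1.12 ± 0.076). PMAIP1, the gene of the BH3-only protein NOXA, rose least of these, with 74.2 and 85.3 CPM against 63.0 and 59.6 CPM (0.37 ± 0.073). TP53I3, FDXR, a mitochondrial reductase gene, and the autophagy gene DRAM1 rose by 2.42, 1.51 and 1.26. TNFRSF10B, the gene of TRAIL receptor DR5, had 376 and 363 CPM after 5-FU, against 183 and 189.7 CPM after the vehicle (0.99), and it overlaps RHOBTB2 and TNFRSF10B-AS1 on the other strand. Without the inhibitor the apoptosis list had 18 genes higher, 0 lower and a median of 0.88. The interaction was called for 3 of its 21 genes, all negative, beside 2.08% of all genes. These were TNFRSF10B (-0.27), the decoy receptor gene TNFRSF10D (-0.43) and PMAIP1 (-0.46). A positive call appeared without the second DMSO/3-MB-PP1 library. Leaving out single libraries ended the call of TNFRSF10B (second 5-FU/3-MB-PP1, second DMSO/3-MB-PP1, first 5-FU/DMSO or either DMSO/DMSO library, -0.29 to -0.25) and of PMAIP1 (first 5-FU/3-MB-PP1, first DMSO/3-MB-PP1, second 5-FU/DMSO or either DMSO/DMSO library, -0.47 to -0.36), so that 1 call was left without either DMSO/DMSO library. For FAS, BBC3 and BAX the interaction was not called, with values of -0.089 ± 0.10, -0.39 ± 0.19 and 0.060 ± 0.11.

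Among 41 tested p53 targets with roles in repair, metabolism or elsewhere, 35 rose and 0 fell, beside 19.7% and 19.9% of all genes. Their median was 0.99. Without the inhibitor 36 rose and 1 fell, beside 21.4% and 22.6% of all genes, and the median was 1.03. GDF15, the gene of a secreted stress cytokine, had 142 and 133 CPM in the 5-FU/3-MB-PP1 libraries, against 26.7 and 30.5 CPM in the DMSO/3-MB-PP1 libraries (2.30 ± 0.074, 4.94-fold). The plexin gene PLXNB3 rose by 2.14, the actin regulator gene EPS8L2 by 2.05, KIAA0247 by 2.01 and the alkaline ceramidase gene ACER2 by 1.77. The interaction was called for 7 of the 41 genes, all negative, beside 2.08% of all genes. Where no filter on low counts was used, 1 positive call was added. Positive calls also appeared without the second DMSO/3-MB-PP1 library and without the second 5-FU/DMSO library. The count of 7 was 4 without the first 5-FU/DMSO or the second DMSO/DMSO library and 3 without the first DMSO/DMSO library. Across the 3 p53 lists, 69 of 82 distinct tested genes rose in the presence of 3-MB-PP1.

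**Figure D2:**
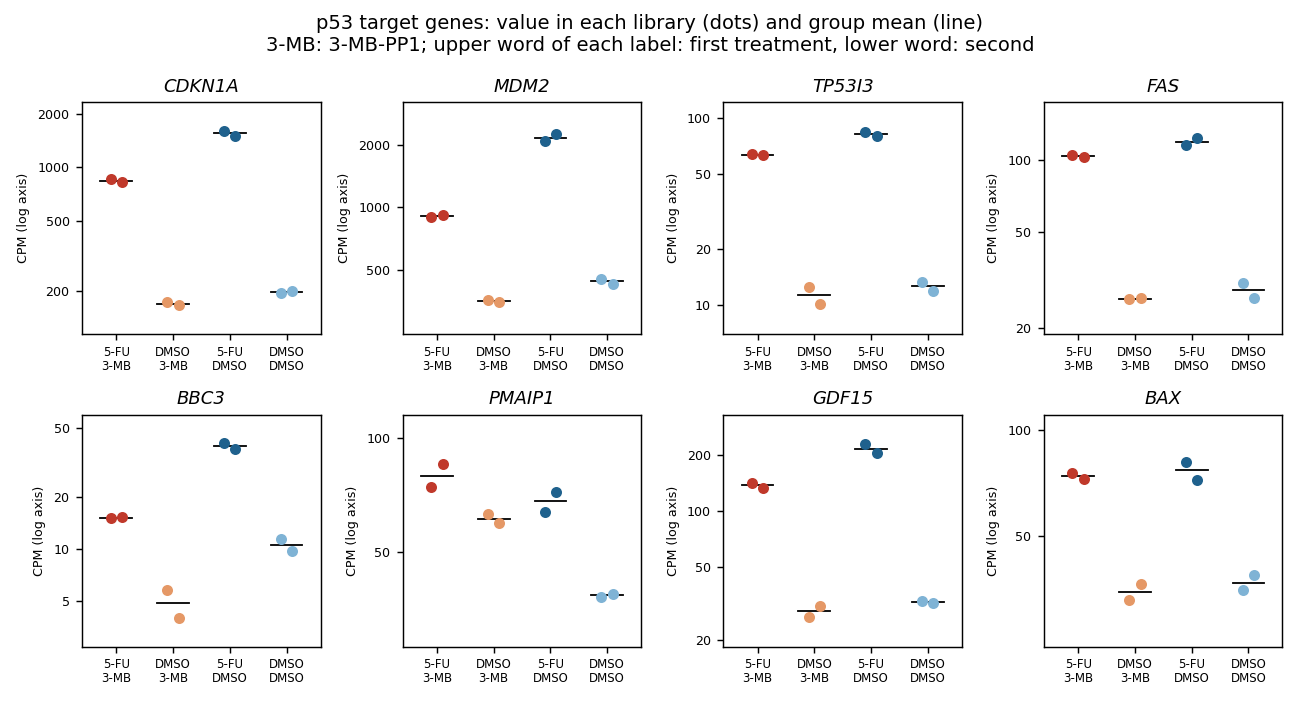
Level of 8 p53 target genes in CPM (log axis) in each of the 8 libraries, shown as dots, with the mean of each group of 2 as a line. In each panel the 5-FU/3-MB-PP1 dots lie above the DMSO/3-MB-PP1 dots, from a factor of 5.36 for TP53I3 to 1.29 for PMAIP1, and for CDKN1A, MDM2, TP53I3, FAS, BBC3 and GDF15 the 5-FU/DMSO dots are higher still.

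Genes of DNA replication fell as a group. All 49 tested genes of the G1/S and replication list were called lower after 5-FU under 3-MB-PP1 (background 19.9%), with a median of -1.44, a 2.72-fold fall. CDC6, the licensing factor that helps load the MCM helicase, had 23.6 and 27.6 CPM in the 5-FU/3-MB-PP1 libraries, against 165 and 159 CPM in the DMSO/3-MB-PP1 libraries (-2.67 ± 0.073, edgeR adjusted p = 2.42e-19). CCNE2 had 6.41 and 5.23 CPM against 37.5 and 42.6 CPM (-2.76 ± 0.12). DTL, a subunit of the ubiquitin ligase that removes CDT1, changed by -2.67, with INTS7 overlapping it on the other strand. The activator gene E2F1 changed by -2.41, the chromatin assembly gene CHAF1A by -2.33 and the replication initiation gene MCM10 by -2.33. At the low end of the list, PCNA, the sliding clamp that is also a p53 target, had 273 and 290.4 CPM after 5-FU and 389.8 and 385 CPM after the vehicle (-0.46). The smallest fall was that of RPA1, a subunit of the single-strand binding complex, at 109 and 111 CPM against 129 and 173 CPM (-0.42 ± 0.088). In bulk RNA, fewer cells in S phase and less of a transcript per cell cannot be told apart.

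The replication-dependent histone genes, which are transcribed in S phase, had the lowest median of the 27 lists. Of 61 such genes 50 were tested, and all 50 fell, beside 19.9% of all genes. Their median was -2.28 (4.85-fold), with a range of -2.93 to -0.68. Their summed level was 1067 and 1375 CPM in the 5-FU/3-MB-PP1 libraries, against 5772 and 5477 CPM in the DMSO/3-MB-PP1 libraries. HIST1H2BJ, an H2B gene, had 17.3 and 26 CPM after 5-FU and 167 and 164 CPM after the vehicle (-2.93 ± 0.10, edgeR adjusted p = 8.69e-18). HIST1H2BB (-2.87), HIST1H2BM (-2.85), HIST1H2BO (-2.81) and HIST1H2AH (-2.72) were likewise among the 10 largest falls. Histone copies are similar in sequence, so the share of reads between single members is uncertain, while the sum is less affected.

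Mitotic genes fell less than replication genes in the median. All 42 tested were lower (median -1.07, 2.10-fold, range -1.41 to -0.34), beside 19.9% of all genes. BUB1B, the checkpoint kinase gene BUBR1, had 62.4 and 62.5 CPM in the 5-FU/3-MB-PP1 libraries, against 165 and 165 CPM in the DMSO/3-MB-PP1 libraries (-1.41 ± 0.059, edgeR adjusted p = 4.25e-16). CCNB1, the gene of cyclin B1, had 183 and 183 CPM against 328 and 343 CPM (-0.87 ± 0.050). The spindle pole gene ASPM changed by -1.38, cyclin A2 (CCNA2) by -1.37, the phosphatase gene CDC25C by -1.36 and the kinesin gene KIF11 by -1.33. PTTG1, which codes for securin, had the smallest fall (-0.34). In homologous recombination, the Fanconi pathway and checkpoints, 28 of 31 tested genes fell and 0 rose (median -1.05). Of all genes, 19.9% fell and 19.7% rose. EXO1, an end-resecting exonuclease gene, had 16 and 17 CPM against 67.7 and 64.4 CPM (-2.0). The helicase gene BLM (-1.98) and the recombination mediator genes BRCA2 (-1.82) and BRCA1 (-1.81) also fell. The 3 that were not called were the kinase gene ATM (-0.007) and 2 subunit genes of the MRN complex, RAD50 (-0.055) and NBN (-0.002).

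Under DMSO each of these lists had a lower median. The 5-FU medians under 3-MB-PP1 and under DMSO were -1.44 and -1.77 for replication, -2.28 and -2.52 for histones, -1.07 and -1.45 for mitosis and -1.05 and -1.40 for recombination genes. The interaction was called positive, meaning a smaller fall with the inhibitor, for 27 of 42 mitotic genes, 15 of 49 replication genes, 10 of 31 recombination genes and 8 of 50 histone genes, beside 2.11% of all genes. In the order mitosis, replication, recombination and histones, these counts were 12, 6, 3 and 1 without the second 5-FU/3-MB-PP1 library and 16, 10, 4 and 5 without the first DMSO/DMSO library. The histone count was 4 with DESeq2, and it was also 17 without the first 5-FU/3-MB-PP1 library and 3 without the second 5-FU/DMSO or the second DMSO/DMSO library. That of recombination was 4 without the first 5-FU/3-MB-PP1, 6 without the first DMSO/3-MB-PP1 and 3 without the first 5-FU/DMSO library. TOP2A, the gene of topoisomerase II alpha, had 216 and 219 CPM in 5-FU/3-MB-PP1 libraries and 386 and 407 CPM in DMSO/3-MB-PP1 libraries (-0.86), and its change under DMSO was -1.46 (interaction 0.60 ± 0.070, edgeR adjusted p = 3.89e-06). Its levels without the inhibitor were 182 and 180.3 CPM in 5-FU/DMSO libraries and 512 and 488 CPM in DMSO/DMSO libraries. The pattern in TOP2A was a higher level after 5-FU and a lower level after the vehicle when 3-MB-PP1 followed. The centromeric histone gene CENPA (0.91) and E2F2 (0.84), a further E2F activator, had the widest positive interactions of their lists among the genes named here. CCNE1, the gene of cyclin E1, was the exception, with 15 and 18.6 CPM against 42.4 and 47.3 CPM under 3-MB-PP1 (-1.40) and a change of -0.71 under DMSO (interaction -0.69, adjusted p = 0.00233 by edgeR).

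Promoters of 3 of the genes that fell are shown because they carry elements known from cell cycle promoters: a CHR element, bound by DREAM and MuvB complexes, E2F sites, and CCAAT boxes bound by NF-Y. Each line gives the 250 bases before the annotated start, 5′ to 3′ on the gene's strand, from RefSeq (GRCh38.p14), with the matches in capitals (CCAAT or its complement ATTGG; the octamer ATTTGCAT; GGCGGGA, a form of the E2F site; TTTGAA, the CHR). HIST1H2BJ and BUB1B were picked after the values were seen, as the histone gene with the largest fall and the mitotic gene with the largest fall whose window holds TTTGAA.
HIST1H2BJ, chr6:27132796-27133045, minus strand: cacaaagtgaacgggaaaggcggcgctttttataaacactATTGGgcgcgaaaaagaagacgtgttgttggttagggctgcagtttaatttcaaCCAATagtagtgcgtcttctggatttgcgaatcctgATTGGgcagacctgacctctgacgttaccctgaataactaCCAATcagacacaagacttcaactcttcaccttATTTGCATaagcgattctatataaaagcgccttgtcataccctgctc
CDC6, chr17:40287629-40287878, plus strand: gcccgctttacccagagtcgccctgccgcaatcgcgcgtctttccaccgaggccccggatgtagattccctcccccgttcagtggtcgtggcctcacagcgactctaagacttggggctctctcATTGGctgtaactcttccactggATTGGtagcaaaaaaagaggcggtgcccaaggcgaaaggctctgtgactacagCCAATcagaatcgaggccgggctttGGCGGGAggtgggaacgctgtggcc
BUB1B, chr15:40160819-40161068, plus strand: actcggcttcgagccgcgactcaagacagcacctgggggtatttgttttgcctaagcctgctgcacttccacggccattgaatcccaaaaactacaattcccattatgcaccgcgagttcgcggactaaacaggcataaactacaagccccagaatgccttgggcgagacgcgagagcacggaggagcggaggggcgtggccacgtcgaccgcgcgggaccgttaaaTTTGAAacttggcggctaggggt
The HIST1H2BJ window held 4 CCAAT boxes and 1 octamer, which began 47 bases before the start. In the CDC6 window there were 3 CCAAT boxes and 1 GGCGGGA, which began 25 bases before the start. BUB1B had TTTGAA beginning 23 bases before the start and no CCAAT box.

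Searched on both strands in 250-base windows, TTTGAA was found in 20 of 36 mitotic promoters (55.6%), 15 of 46 histone promoters (32.6%) and 0 of 43 replication promoters, beside 13.6% of all 27305 genes with a window. TTCCCGC, an E2F site, stood in 14 of 43 replication promoters (32.6%), against 5.59% of all. CCAAT occurred in 26 of 36 mitotic (72.2%), 38 of 46 histone (82.6%) and 23 of 43 replication promoters (53.5%), with 33% of all. Of 2481 genes called lower that had a window, 11.3% held TTTGAA, 13.3% TTCCCGC and 42.4% CCAAT. The 27305 genes include many not tested here, since 11764 tested genes had a window. Shares among all tested genes or genes called higher were not computed. Whether any share is particular to genes that fell therefore cannot be told. A pair of motifs was added after the sequences were seen. GGCGGGA, which shares letters with the complement of TTCCCGC where they overlap, was in 20 of 43 replication promoters (46.5%, all genes 13.6%), and the octamer ATTTGCAT was in 11 of 15 H2B promoters (73.3%, all genes 1.66%). These matches describe letters in a window and are not evidence of binding in these cells.

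In thymidylate and dNTP metabolism, where 5-FU acts, 33 genes were tested, of which 6 rose and 19 fell (median -0.27). These were 18.2% and 57.6%, beside 19.7% and 19.9% of all genes. TYMS, the gene of thymidylate synthase, was not called, with 162 and 167 CPM in the 5-FU/3-MB-PP1 libraries and 119.7 and 179 CPM in the DMSO/3-MB-PP1 libraries (0.17 ± 0.10, edgeR adjusted p = 0.184). Its groups overlapped because the DMSO/3-MB-PP1 libraries lay on both sides of the others, and it overlaps ENOSF1 on the other strand. The uracil glycosylase gene UNG, whose product removes uracil from DNA, had 38.7 and 36.6 CPM after 5-FU, against 111 and 102 CPM after the vehicle (-1.51 ± 0.070). DUT, the gene of the dUTPase that keeps uracil out of DNA, had 40.9 and 41.6 CPM against 80.4 and 87.8 CPM (-1.01). The ribonucleotide reductase gene RRM2 changed by -1.23 and its partner RRM1 by -0.72, while RRM2B, the subunit induced by p53, rose to 348 and 359 CPM, against 147 and 158 CPM (1.22 ± 0.053). Thymidine kinase genes fell both for the cytosolic TK1 (-0.52) and the mitochondrial TK2 (-0.62). The gene of the folate enzyme SHMT1 fell as well (-0.92). Interactions were positive for RRM2 (0.57) and RRM1 (0.42), whose falls under DMSO were larger (-1.80 and -1.14). The call of TYMS depended on the filter on low counts, since without it TYMS was called at 0.16 (edgeR adjusted p = 0.0278). It also depended on the DMSO/3-MB-PP1 libraries, as did its direction: its change was -0.13 without the first of them (edgeR adjusted p = 0.193) and 0.46 without the second (adjusted p = 9.17e-07).

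The widest gap between the medians of the 2 settings lay in the immediate early and growth factor response genes, which are transcribed within minutes of ERK or stress signalling. Under 3-MB-PP1, 15 of 44 rose, 7 fell and the median was 0.05 (-0.13 with spike-in scaling), whereas under DMSO 36 rose, 0 fell and the median was 0.71. The shares under 3-MB-PP1 were 34.1% and 15.9%, beside 19.7% and 19.9% of all genes. Under DMSO 21.4% of all genes were higher and 22.6% lower. Interactions were called negative for 2.08% of all genes and positive for 2.11%. The interaction was negative for 25 of 44 and positive for 0, and with single libraries left out it was negative for 20 to 25. The members named next for that difference were chosen after their values were seen. ID3, an inhibitor of bHLH factors, had 27.0 and 25.5 CPM in 5-FU/3-MB-PP1 libraries and 29.6 and 29.1 CPM in DMSO/3-MB-PP1 libraries, and it was not called (-0.16 ± 0.090). Without the inhibitor ID3 had 54.8 and 56.6 CPM in 5-FU/DMSO libraries and 21.0 and 26.1 CPM in DMSO/DMSO libraries (1.24 ± 0.088; interaction -1.40, edgeR adjusted p = 5.61e-08). Its relatives ID1 and ID2 had interactions of -1.15 and -0.94. JUN, a subunit of AP-1, had 14.2 and 14.0 CPM against 9.71 and 9.23 CPM under 3-MB-PP1 (0.56) and 30.8 and 29.2 CPM against 8.42 and 9.32 CPM under DMSO (1.76; interaction -1.20). The early response genes IER3 (-1.07), ZFP36, whose product destabilises mRNA (-1.12), and the phosphatase gene DUSP4 (-0.94) differed in the same direction. ATF3 and HBEGF, a stress transcription factor gene and an EGFR ligand gene, rose by 1.73 and 1.31 with the inhibitor and by 1.76 and 1.34 without it, and their interactions were not called (-0.035 ± 0.14 and -0.034 ± 0.15). FOS was not called in either setting (0.17 and 0.068).

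**Figure D3:**
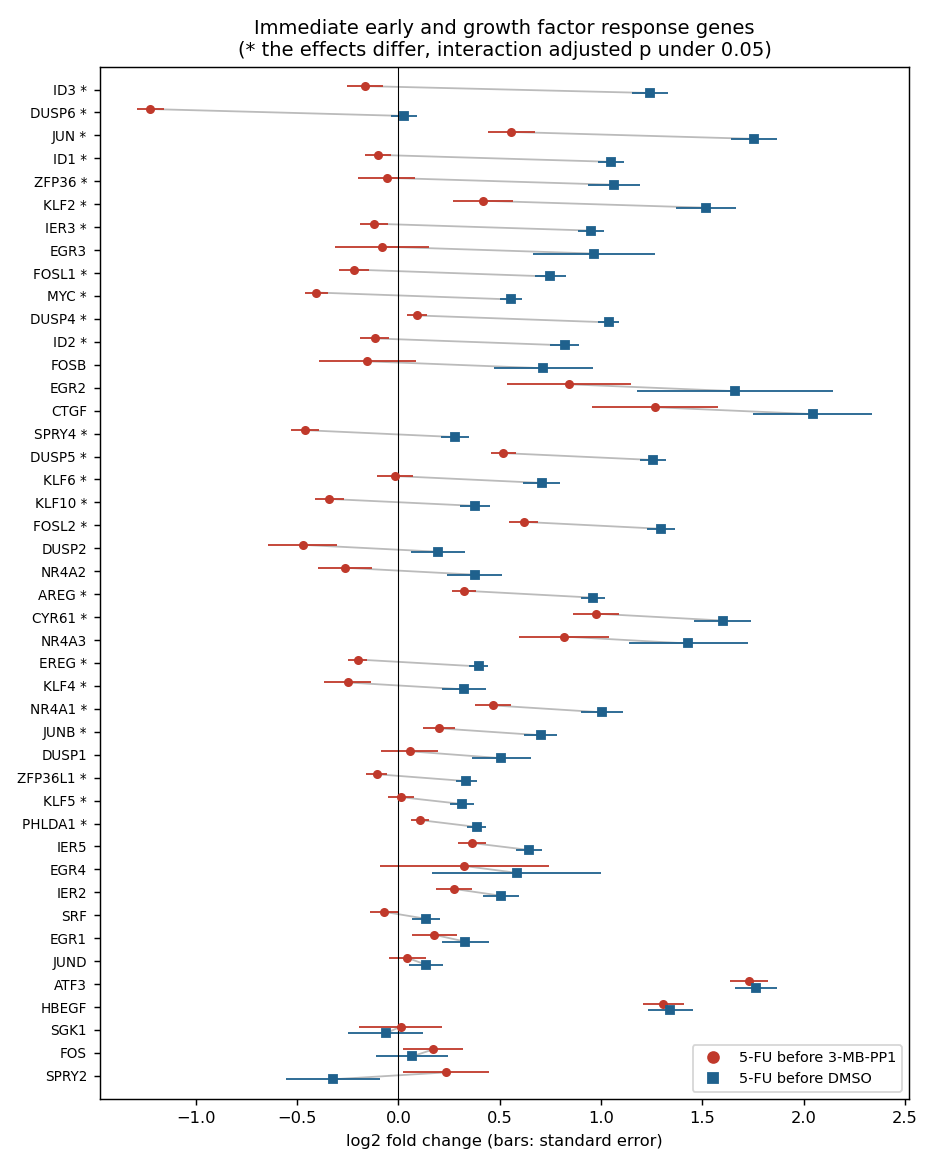
Log2 fold change of 5-FU before 3-MB-PP1 (red circles) and before DMSO (blue squares) for 44 immediate early and growth factor response genes, with standard errors from the edgeR fit and 2 libraries in each group. Genes are ordered by the interaction, from SPRY2 at the bottom to ID3 at the top, and 25 genes with an asterisk were called in the interaction.

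A few genes moved in opposite directions, and they were named after their values were seen. Of the genes called in both settings 4592 had the same direction and 40 the opposite, 28 of these lower under 3-MB-PP1 and higher under DMSO. MYC, a growth-promoting transcription factor gene, had 148 and 150.3 CPM in 5-FU/3-MB-PP1 libraries, against 197 and 198 CPM in DMSO/3-MB-PP1 libraries (-0.40 ± 0.059, edgeR adjusted p = 3.99e-06). It had 522 and 505 CPM in 5-FU/DMSO libraries, against 324 and 374 CPM in DMSO/DMSO libraries (0.56 ± 0.055; interaction -0.96). The ERK feedback inhibitor gene SPRY4 (-0.46 and 0.28), and the TGF-beta-responsive KLF10 (-0.34 and 0.38) did so too, each pair giving the 3-MB-PP1 setting first. DUSP6, a phosphatase of ERK, had 113 and 116 CPM in 5-FU/3-MB-PP1 libraries, against 277 and 258 CPM in DMSO/3-MB-PP1 libraries (-1.23), and was not called under DMSO (0.027). The other 12 had the reverse pattern.

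Of the genes called higher under 3-MB-PP1, 2173 (71.1%) were also called higher under DMSO, which is 65.5% of the genes called higher there. Of those called lower 2419 were shared, 78.4% of the 3-MB-PP1 set and 68.9% of the DMSO set. The 2 effects share no library. Of the 651 genes called in the interaction, 141 rose in both settings, 127 of them less under 3-MB-PP1, and 216 fell in both, 205 of them less. A further 166 were called under DMSO only and 88 under 3-MB-PP1 only.

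Several chaperone genes fell. HSPA8, the constitutive HSC70 chaperone, had 957 and 962 CPM in the 5-FU/3-MB-PP1 libraries, against 2988 and 2866 CPM in the DMSO/3-MB-PP1 libraries (-1.61 ± 0.043, edgeR adjusted p = 1.62e-19). Without the inhibitor it had 2812 and 3008 CPM in 5-FU/DMSO libraries and 3706 and 3838 CPM in DMSO/DMSO libraries (-0.37; interaction -1.24 ± 0.059). The inducible HSPA1A (-1.22) and HSPA1B (-1.19) also fell, and since these genes are near-identical their separate counts are uncertain. HSF1, the regulator of the heat shock response, went against the list (0.32), and 9 of 17 tested genes fell, 2 rose and the median was -0.23. The falls were 52.9% and the rises 11.8%, beside 19.9% and 19.7% of all genes.

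Sterol genes fell. Of 32 tested genes of cholesterol synthesis and SREBP targets 27 fell, 2 rose and the median was -0.57 under 3-MB-PP1 and -0.70 under DMSO. The falls were 84.4% and the rises 6.25%, beside 19.9% and 19.7% of all genes. The 2 that rose became 1 without either 5-FU/3-MB-PP1 library and 0 without the first DMSO/3-MB-PP1 library, and 1 with DESeq2 or with the deepest library thinned. INSIG1, the sterol sensor that retains SREBP, had 8.81 and 7.34 CPM in 5-FU/3-MB-PP1 libraries, against 27.3 and 30.5 CPM in DMSO/3-MB-PP1 libraries (-1.81), and its change under DMSO was -2.92 (interaction 1.10). The isomerase gene IDI1 (-1.44), the fatty acid desaturase gene SCD (-1.34) and the squalene epoxidase gene SQLE (-1.07) also fell. In the NF-kB list 10 of 16 tested genes rose (62.5%, beside 19.7% of all genes) and 0 fell (median 0.59). Among them were CSF1, the macrophage growth factor gene (1.49), the adhesion gene ICAM1 (0.91) and the inhibitor gene NFKBIA (0.65). Of 19 tested NRF2 targets 12 rose and 2 fell (63.2% and 10.5%, beside 19.7% and 19.9% of all genes), with a median of 0.27. HMOX1, the heme oxygenase gene, had 39.2 and 40.8 CPM against 17 and 17.6 CPM (1.22) and rose by 2.67 under DMSO (interaction -1.45).

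In the list of the integrated stress and unfolded protein responses 5 of 29 tested genes rose and 12 fell, with a median of -0.08. These were 17.2% and 41.4%, beside 19.7% and 19.9% of all genes. DDIT4, an inhibitor of mTORC1 that p53 also induces, rose by 1.32, while XBP1, a transcription factor of the unfolded protein response, had 22.8 and 23.6 CPM after 5-FU, against 49.6 and 55.3 CPM after the vehicle (-1.16). The tRNA synthetase gene AARS (-0.83) fell too. Among hypoxia and glycolysis genes 9 of 28 rose and 8 fell under 3-MB-PP1 (median -0.07), and 13 rose and 0 fell under DMSO (0.18). The shares under 3-MB-PP1 were 32.1% and 28.6%, beside 19.7% and 19.9% of all genes. Without the first 5-FU/3-MB-PP1 library 5 fell. ALDOC, an aldolase gene, had 8.17 and 9.37 CPM against 16.7 and 22.0 CPM (-1.07; interaction -1.48). NDRG1, a hypoxia-inducible gene, rose by 0.53 under 3-MB-PP1 and 1.54 under DMSO (interaction -1.0).

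**Figure D4:**
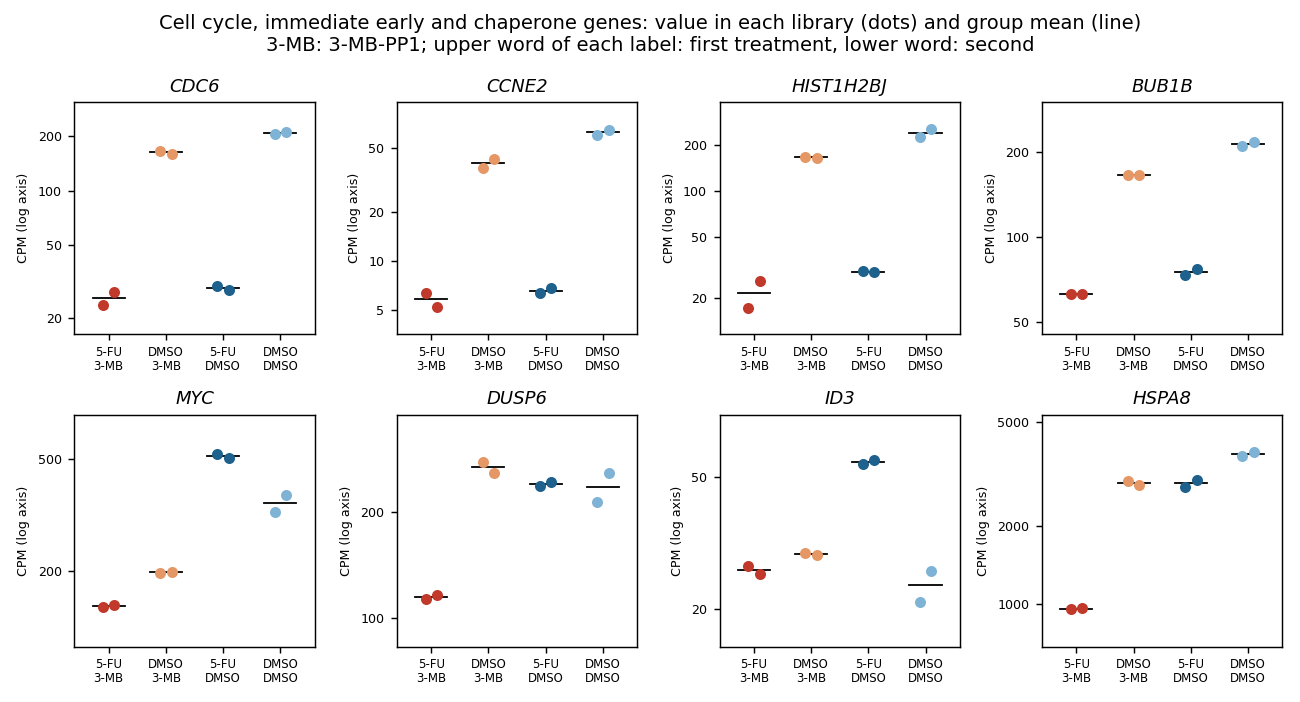
Level of 8 genes in CPM (log axis) in each library (dots) with the mean of each group of 2 (line). CDC6, CCNE2, HIST1H2BJ and BUB1B lie low after 5-FU with either second treatment, MYC and ID3 lie highest in the 5-FU/DMSO libraries, and DUSP6 and HSPA8 lie lowest in the 5-FU/3-MB-PP1 libraries.

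Called genes of the transcription machinery were not far above the background in number. Of 41 tested kinases and elongation factors of RNA polymerase II, 10 rose and 12 fell (24.4% and 29.3%, beside 19.7% and 19.9% of all genes), with a median of -0.01, and 5 rose without the first 5-FU/3-MB-PP1 library. CDK7 was not called, with 58.4 and 62.3 CPM in the 5-FU/3-MB-PP1 libraries and 60.6 and 62.5 CPM in the DMSO/3-MB-PP1 libraries (-0.022 ± 0.067, edgeR adjusted p = 0.83). CCNK, the cyclin of CDK12 and a p53 target, rose by 0.90, and CCDC85C overlaps it on the other strand. HEXIM1, which holds P-TEFb in its inactive complex, rose by 0.65, and MEPCE, which caps the 7SK RNA of that complex, fell by 0.40. In the BCL2 family 42.9% of tested genes rose and 35.7% fell, beside 19.7% and 19.9% of all genes. These were 6 of 14 that rose and 5 that fell (median 0.08, and -0.10 with spike-in scaling). The 5 were 3 without the first 5-FU/3-MB-PP1 library, 2 without the second, 3 without the second DMSO/3-MB-PP1 library and 3 with DESeq2. The anti-apoptotic BCL2 fell by 1.05 at a low level, 2.16 and 1.88 CPM against 4.24 and 4.00 CPM. MCL1, a short-lived survival gene, had 306 and 309 CPM after 5-FU and 335 and 347 CPM after the vehicle (-0.15), a call that ended without either 5-FU/3-MB-PP1 library or the second DMSO/3-MB-PP1 library (-0.17 to -0.13). The effector gene BAK1 rose by 0.90 and the BH3-only gene BIK by 0.64, while BCL2L1, the gene of BCL-XL, rose by 0.22 (interaction -0.41).

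Among CDK inhibitors and G1 cyclins 5 of 15 tested genes rose and 7 fell (33.3% and 46.7%, beside 19.7% and 19.9% of all genes). CCND1, the gene of cyclin D1, had 998 and 961 CPM after 5-FU, against 684 and 729.7 CPM after the vehicle (0.47; interaction -0.44). WEE1, the kinase that holds CDK1 inactive (-1.54), and the INK4 inhibitor gene CDKN2C (-1.41) fell. Of 24 MXD, E2F, MYB and pocket protein genes 3 rose and 13 fell (12.5% and 54.2%, with a median of -0.31). E2F8, a repressor, fell by 1.92, and MXD4, a MYC antagonist, rose by 1.07. MYB, a proliferation factor gene, fell by 3.27 and had under 2 CPM in all 4 libraries.

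Ribosomal protein genes shifted slightly upward relative to other genes. Of 77 tested 41 rose and 4 fell (53.2% and 5.19%, beside 19.7% and 19.9% of all genes). Their median of 0.13 was -0.08 with spike-in scaling and 0.11 relative to the shift of all genes. In the fit to the 4 libraries with 3-MB-PP1 alone 7 fell. RPS19, a small subunit protein gene, had 1115 and 1089 CPM in the 5-FU/3-MB-PP1 libraries, against 772 and 775 CPM in the DMSO/3-MB-PP1 libraries (0.51). Against the list, RPL10A, of the large subunit, fell by 0.68. In ribosome biogenesis and RNA polymerase I genes 32.4% rose and 21.6% fell, beside 19.7% and 19.9% of all genes. These were 12 of 37 that rose and 8 that fell (median 0.09, and -0.13 with spike-in scaling). The 12 were 7 without either 5-FU/3-MB-PP1 library or the first DMSO/3-MB-PP1 library. UBTF, the gene of the polymerase I factor UBF, fell by 0.51.

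**Figure D5:**
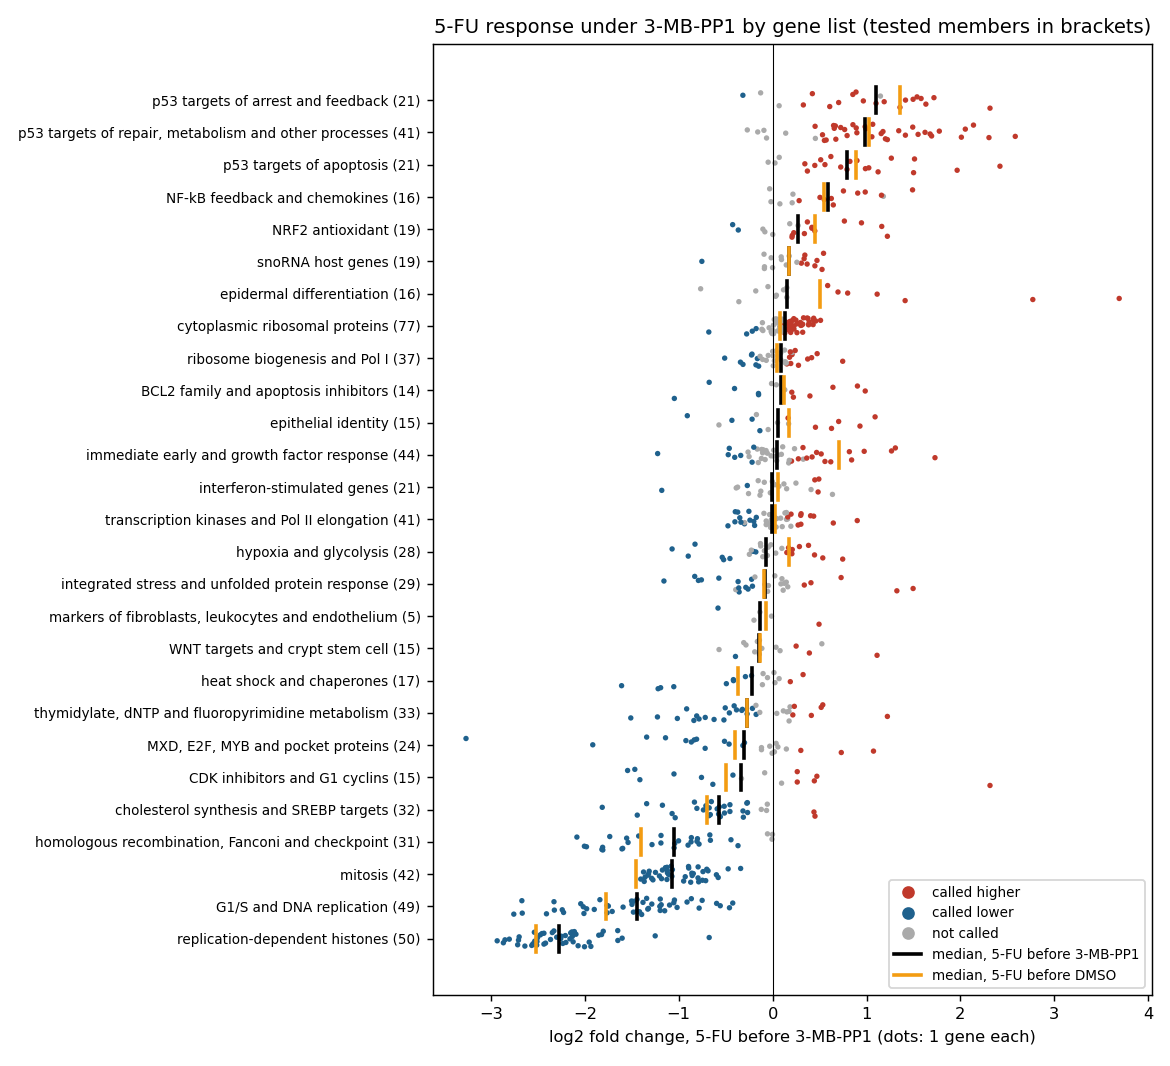
Log2 fold change of 5-FU before 3-MB-PP1 for the tested members of 27 gene lists, 1 dot per gene, red where called higher, blue where called lower and grey where not called, from 2 libraries in each group. Black bars are medians under 3-MB-PP1 and orange bars medians under DMSO. The medians run from -2.28 for histones to 1.10 for p53 arrest targets, and the bars part most for immediate early genes (0.05 and 0.71). Under spike-in scaling the medians of the immediate early, BCL2, ribosome biogenesis, ribosomal protein, snoRNA host and epithelial lists were below 0.

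By the ranking of the interaction over all genes of at least 1 CPM, ARID5B, a chromatin-binding gene, had among the largest positive values. It had 17.3 and 16.2 CPM in 5-FU/3-MB-PP1 libraries, against 5.80 and 6.28 CPM in DMSO/3-MB-PP1 libraries (1.5), and was not called under DMSO (0.11; interaction 1.39, edgeR adjusted p = 1.19e-05). On the negative side ANGPTL4, a secreted inhibitor of lipoprotein lipase, had 8.57 and 7.42 CPM against 7.24 and 7.89 CPM under 3-MB-PP1 and 22.7 and 18.1 CPM against 4.88 and 4.47 CPM under DMSO (interaction -2.01). Epidermal differentiation genes, a list that holds FLG and HRNR, had 16 of 34 members tested. Of these 7 rose (43.8%, beside 19.7% of all genes) and 0 fell. Among them the basal keratin gene KRT15 rose by 1.11.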

How the data were processed

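Per the labels' protocols, total RNA was extracted with RNeasy, depleted with Ribo-Zero and sequenced single-end. TopHat2 2.0.13 and the build hg19 are listed per the submitters' processing notes. The counting program, strand setting and annotation release were not given in the sources used here. The deposited tables hold a raw read count per RefSeq transcript, not normalized by the authors, and an RPKM value by the authors. The RPKM served only to derive transcript lengths, for the length bins and the choice of the longest transcript. It was not used as a level. Of 41643 transcripts, 6260 had no symbol, and 5902 of these were matched by accession to the RefSeq table of GRCh38.p14. Each of 23546 genes was represented by its most counted transcript on average, and 15511 genes passed filterByExpr.

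All 8 libraries entered 1 edgeR 4.0.16 model (R 4.3.3) of 4 groups with TMM scaling, 4 residual degrees of freedom and quasi-likelihood F tests. In each of 3 comparisons the two-sided p-values were corrected over all genes by the Benjamini-Hochberg method, and standard errors came from the F statistics. "Rose", "fell" and "called" mean an adjusted p under 0.05. The common biological coefficient of variation was 0.0423. The fit was also run on simulated counts with the same spread for all genes, so that run does not measure error in these data. Named genes are the 10 largest rises and falls among called genes of at least 1 CPM, up to 6 members of each list, the 8 largest interactions each way and 17 fixed genes, and not all of them are printed, since some are not reported here. Other genes named were chosen after their values were seen. Members and gene lists were chosen with earlier results of these data known. Alternatives were DESeq2 1.42.0, RLE and spike-in scaling, no filter, the 4 libraries alone, a replicate block, single libraries left out, thinning and the longest transcript.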

Additional observations from a re-analysis of the deposited data

Results flagged for a closer look

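The effect of 5-FU under 3-MB-PP1 and its effect under DMSO differed, by the interaction in edgeR at an adjusted p under 0.05, for 49 of the genes that the text names, 33 with a negative and 16 with a positive value. The values in brackets are interactions on the log2 scale, with 2 libraries in each of the 4 groups, and the 2 effects share no library. Of the p53 targets named, those that rose less under the inhibitor were CDKN1A (-0.67), MDM2 (-0.93), PLK2 (-0.47), PLK3 (-0.59), PHLDA3 (-0.51), GDF15 (-0.46), TNFRSF10B (-0.27), TNFRSF10D (-0.43) and PMAIP1 (-0.46). Among immediate early and growth factor response genes the negative values were those of ID1 (-1.15), ID2 (-0.94), ID3 (-1.40), JUN (-1.20), IER3 (-1.07), ZFP36 (-1.12), DUSP4 (-0.94), MYC (-0.96), SPRY4 (-0.74), KLF10 (-0.72) and DUSP6 (-1.25). ZFP36, DUSP4, ID1, ID2, ID3 and IER3 were called under DMSO alone, and DUSP6 under 3-MB-PP1 alone. Without the second DMSO/3-MB-PP1 library IER3 was also called under 3-MB-PP1 (-0.19, edgeR adjusted p = 0.0389).

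In the cell cycle, recombination and nucleotide lists the positive values, which stand for smaller falls under 3-MB-PP1, were those of TOP2A (0.60), CENPA (0.91), ASPM (0.56), KIF11 (0.54), E2F2 (0.84), DTL (0.43), MCM10 (0.43), EXO1 (0.54), BRCA1 (0.48), RRM2 (0.57), RRM1 (0.42), UNG (0.40) and TK1 (0.36). CCNE1 (-0.69) fell more under 3-MB-PP1, and TK2 (-0.64) was called lower there alone. Negative interactions were also found for HSPA8 (-1.24), HSPA1A (-0.41), HSPA1B (-0.30), HMOX1 (-1.45), XBP1 (-0.48), ALDOC (-1.48), NDRG1 (-1.0), BCL2L1 (-0.41), CCND1 (-0.44), KRT19 (-0.38) and ANGPTL4 (-2.01), and positive ones for INSIG1 (1.10), IDI1 (0.37) and ARID5B (1.39).

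With spike-in scaling none of the 49 kept the call, since 0 of all genes were called in that interaction by edgeR (75 at an unadjusted p under 0.05). DESeq2 gave an adjusted p for 47 and called 44, without DTL, TK2 and IDI1, and IDI1 was not called with the deepest library thinned. With single libraries left out 37 to 48 of the 49 kept the call. Of the 5-FU/3-MB-PP1 libraries, leaving out the first ended the call of PMAIP1, DTL, BRCA1, UNG, TK2, TK1, XBP1, HSPA1B and IDI1, and leaving out the second that of TNFRSF10B, GDF15, DTL, MCM10, EXO1, BRCA1, UNG, TK2, TK1, HSPA1B and IDI1. Of the DMSO/3-MB-PP1 libraries, leaving out the first ended the call of PMAIP1, PHLDA3, DTL, MCM10, TK2, HSPA1B and IDI1, and leaving out the second that of TNFRSF10B. Of the 5-FU/DMSO libraries, leaving out the first ended the call of TNFRSF10B, PHLDA3, GDF15, DTL, MCM10, EXO1, BRCA1, TK2, HSPA1B and IDI1, and leaving out the second that of PMAIP1, DTL, MCM10, UNG and IDI1. Of the DMSO/DMSO libraries, leaving out the first ended the call of TNFRSF10B, PMAIP1, GDF15, DTL, MCM10, BRCA1, UNG, TK2, TK1, XBP1, HSPA1B and IDI1, and leaving out the second that of TNFRSF10B, PMAIP1, PHLDA3, GDF15, DTL, UNG, HSPA1B and IDI1. In these fits the interaction was -0.53 to -0.37 for PHLDA3, -0.48 to -0.39 for GDF15, 0.34 to 0.47 for DTL, 0.28 to 0.45 for MCM10, 0.47 to 0.48 for EXO1, 0.38 to 0.50 for BRCA1, 0.35 to 0.42 for UNG, -0.67 to -0.57 for TK2, 0.34 to 0.36 for TK1, -0.48 for XBP1, -0.32 to -0.24 for HSPA1B and 0.31 to 0.40 for IDI1.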

How the results depend on the processing

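Of 122 named genes called for 5-FU under 3-MB-PP1, 0 changed direction under any alternative, and all 122 kept the call with DESeq2, RLE scaling, no filter on low counts, a fit to the 4 libraries alone, thinning of the deepest library and the longest transcript of each gene. With spike-in scaling 37 kept it. Across single libraries left out, 120 to 122 kept it. Scaling to the spike-ins called 140 genes for 5-FU under 3-MB-PP1 (20 higher, 120 lower). It called 243 under DMSO (93 higher, 150 lower) and 0 in the interaction (0 positive, 0 negative). By list, 46 histone, 19 replication, 10 recombination and 0 mitotic genes were called lower under 3-MB-PP1 with that scaling. In the p53 lists 1 arrest, 1 apoptosis and 5 other targets were called higher. The medians of these lists kept their sign. DESeq2 called 379 in the interaction, 186 positive and 193 negative. With single libraries left out the calls ranged from 4467 to 5731 for 5-FU under 3-MB-PP1, and in the interaction from 240 to 903, of which 90 to 538 were positive and 133 to 365 negative. A library left alone in its group was taken to vary like the others. Differences between the replicates of a group correlated between groups at -0.063 to 0.045. All genes, noisy low ones included, weighed equally there. Whether the replicate numbers pair libraries therefore cannot be told from these values. A fit with the replicate number as a block called 6185 genes under 3-MB-PP1 and 668 in the interaction, and it changed no call of a named gene. The cause of these shifts was not tested.

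Values that changed sign all belonged to results that were not called as reported. With spike-in scaling the 5-FU change under 3-MB-PP1 was -0.15 for TYMS, -0.13 for DUSP4, -0.12 for FOS and -0.13 for ANGPTL4, and the interaction of BAX was -0.31. With single libraries left out the change ranged from -0.061 to 0.036 for ATM, -0.030 to 0.020 for NBN, -0.13 to 0.46 for TYMS (called at 0.46, without the second DMSO/3-MB-PP1 library), -0.14 to 0.18 for ZFP36, -0.072 to 0.30 for FOS, -0.078 to 0.022 for CDK7 and -0.001 to 0.20 for ANGPTL4. The interaction then ranged from -0.19 to 0.008 for FAS, -0.51 to 0.032 for BBC3, -0.035 to 0.14 for BAX, -0.16 to 0.060 for ATF3 and -0.13 to 0.062 for HBEGF, which had 0.009 with the deepest library thinned. Depth limits genes of a few CPM: in 4 bins of equal gene number by level, 15.4% of the lowest bin and 56.4% of the highest were called. The shares of all genes given beside the lists were not matched for level.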

Other observations

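Some lists outside the comparisons above held values of their own. Of 160 rows of snoRNAs and scaRNAs, the small guide RNAs of rRNA and snRNA modification, 49 were higher and 6 lower after 5-FU under 3-MB-PP1, with a median of 0.31, beside 19.7% higher and 19.9% lower among all genes. Of 19 snoRNA host genes 8 rose and 1 fell (median 0.18, and -0.08 with spike-in scaling), and without the first 5-FU/3-MB-PP1 library 5 rose. GAS5, a host of many snoRNAs, had 117 and 119.5 CPM in the 5-FU/3-MB-PP1 libraries, against 79.1 and 87.1 CPM in the DMSO/3-MB-PP1 libraries (0.53), while SNHG10 fell by 0.75. The snoRNA rows lie within their hosts, so the reads of a host and its guests may overlap in these counts.

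Of 21 tested interferon-stimulated genes 3 were higher and 2 lower (14.3% and 9.52%, beside 19.7% and 19.9% of all genes). OAS3, the gene of an antiviral oligoadenylate synthetase, had 18.4 and 21.0 CPM after 5-FU, against 46.6 and 41.5 CPM after the vehicle (-1.18), and the ubiquitin-like modifier gene ISG15 rose by 0.48. In the epithelial list 6 of 15 tested genes rose and 4 fell (median 0.05, and -0.20 with spike-in scaling), and the 4 were 2 without the first 5-FU/3-MB-PP1 library, 1 without the second and 2 without the first DMSO/3-MB-PP1 library or with DESeq2. The shares of the epithelial list were 40% higher and 26.7% lower, beside 19.7% and 19.9% of all genes. The keratin gene KRT19 had 707 and 672 CPM against 366 and 358 CPM (0.93), the epithelial transcription factor gene ELF3 rose by 1.09, and the splicing regulator gene ESRP1 fell by 0.91. In 4 bins of equal gene number by transcript length, from short to long, the median change was 0.049, 0.014, -0.016 and -0.031.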
